A study of Mus musculus with 12 samples.

Results

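The genes described here are those whose answer to estradiol (E2) differed between the epithelial and the stromal layer of a mouse uterine co-culture. They were chosen by 1 contrast, the E2-minus-vehicle difference of the stromal arrays minus the same difference of the epithelial arrays, tested in limma on the log2 values of all 12 arrays. A gene was taken where this layer difference had a Benjamini-Hochberg adjusted p under 0.05 over the 23410 probe sets with a symbol, and was represented by its brightest probe set with 1 symbol. There were 184 such genes among 19938, or 0.923%. The response was more positive in stroma in 60 of them (0.301% of all genes) and more positive in epithelium in 124 (0.622%).

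The cells came from CD-1 mice on day 4 of pseudopregnancy, with epithelial sheets on inserts coated with matrigel above stromal cells on cover slips. After a night in phenol-red free medium with 1% charcoal-stripped serum, the co-cultures received E2 at 10 nM or 0.01% ethanol as vehicle, and the layers were harvested apart after 2 days. Each layer thus has a vehicle and an E2 group, 4 groups in all, of 3 Affymetrix Mouse Gene 1.0 ST arrays each. All groups shared the strain, the state of pseudopregnancy, the co-culture and the hormone depletion. Whether arrays within a group stem from different animals, pools or cultures is not stated in the labels, so every p below measures the spread between these arrays, which may be technical.

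Estrogen acts in the uterus through nuclear receptors that bind DNA at estrogen response elements or work through other factors such as AP-1. Epithelium and stroma both hold these receptors, and the layers talk to each other: stromal growth factors such as IGF1 and members of the FGF family act on the epithelium above. Progesterone, high in pseudopregnancy, turns many of these signals in the opposite direction, which makes the layer in which a gene responds a classical question of uterine biology.

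The layers were first checked against marker lists. The mean of 19 epithelial markers (Cdh1, Epcam, keratins and claudins among them) lay between 9.54 and 11.17 on the epithelial arrays and between 6.85 and 7.37 on the stromal arrays, in log2 signal. The mean of 20 stromal markers lay between 9.57 and 10.23 on the epithelial arrays and between 10.23 and 10.53 on the stromal arrays, so the epithelial layer carried transcripts of these markers. Leukocyte markers (16 genes) read 8.41 to 9.10 on the epithelial and 8.96 to 9.48 on the stromal arrays. Mesothelial markers (6 genes) read 9.04 to 9.63 on the epithelial and 7.03 to 7.35 on the stromal arrays. Which cells of the epithelial layer gave the stromal marker signal was not tested. Within the epithelial layer the vehicle arrays had epithelial marker means of 10.60, 11.17 and 9.62 and the E2 arrays 9.54, 9.73 and 9.83. Their stromal marker means were 9.70, 9.57 and 10.20 on the vehicle arrays, and 10.21, 10.23 and 10.17 on the E2 arrays. A response of the epithelial arrays is therefore a response of the layer as harvested, and fewer cells of a type cannot be told apart from less RNA per cell. A fit chosen after seeing the data took this epithelial mean as a covariate, and in it 75 genes passed (38 more positive in stroma, 37 in epithelium). Of the 83 genes past the threshold that the naming rule gave, 32 still passed in that fit.

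By their responses within each layer, the 184 genes were sorted into 4 kinds, which is a description and carries no test of its own. In 95 genes E2 changed the stroma and the epithelial difference missed its threshold, in 41 it changed the epithelium and the stromal difference missed, and in 40 the 2 layers moved in opposite directions with an unadjusted p under 0.05 in each. The remaining 8 moved the same way in both layers by unequal amounts. The other layer's 95% interval lay within a 2-fold change either way in 88 of the 95 stromal genes and in 36 of the 41 epithelial genes; for the rest a response of 2-fold in the quieter layer was within the interval. The count of 184 rested on single arrays: it rose to 653 without epithelial vehicle replicate 3 and 627 without epithelial E2 replicate 3. It dropped to 106, 80 and 66 without epithelial vehicle replicate 1 and epithelial E2 replicates 1 and 2, to 101 and 87 without stromal vehicle replicates 1 and 3, and to 70, 65 and 108 without stromal E2 replicates 1, 2 and 3. Of the 184 genes, 57 passed in all 12 of these fits.

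**Figure D1:**
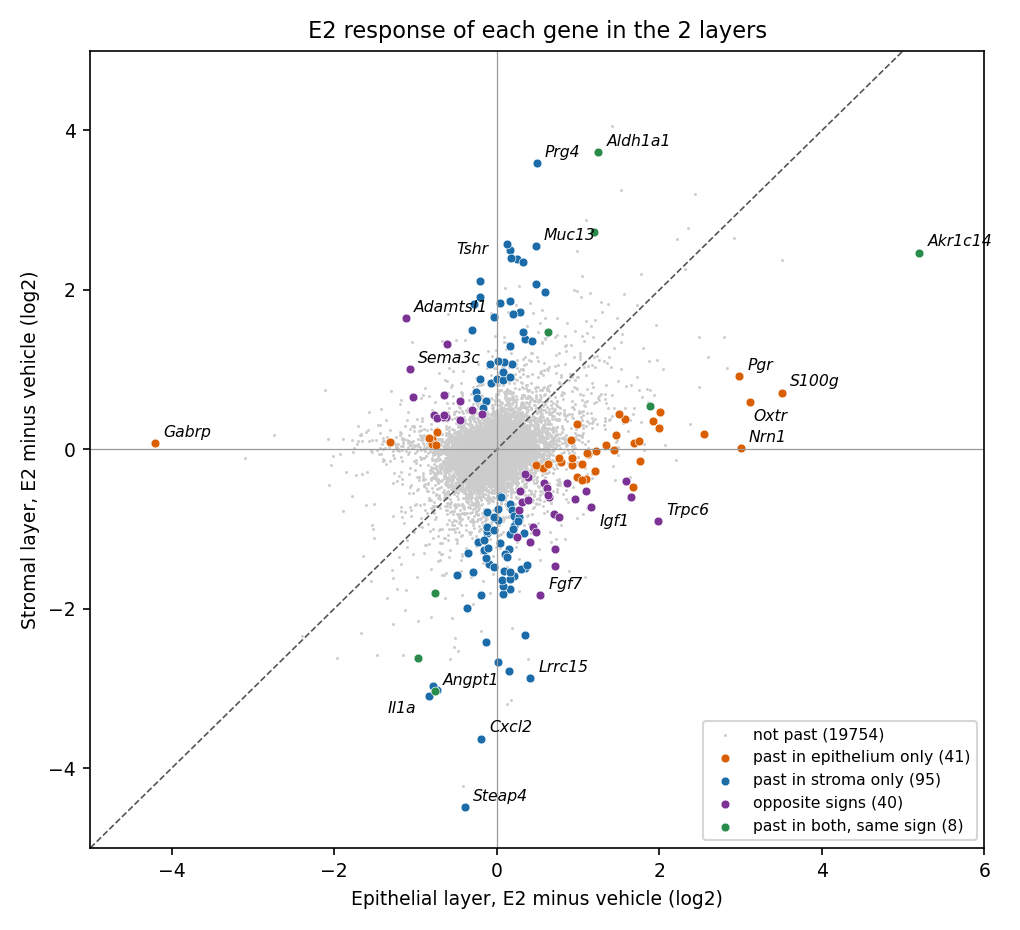
Each point is 1 of 19938 genes, with the E2-minus-vehicle difference of the epithelial layer on the x axis and of the stromal layer on the y axis, both in log2 units and means of 3 arrays a group. Coloured points are the 184 genes past the test of the layer difference; Prg4 and Steap4 lie near the vertical axis, Nrn1 and Gabrp near the horizontal axis, and Igf1, Fgf7 and Trpc6 at the lower right.

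A response called in 1 layer and missed in the other is a weaker statement than a layer difference. E2 changed 606 genes in the epithelium (3.04%) and 722 in the stroma (3.62%), where both layers shared 1 estimate of the spread. The median SD within a group was 0.185 and 0.158 in the epithelium (vehicle, E2) and 0.0946 and 0.0804 in the stroma, and with each layer's 6 arrays fitted alone, chosen after seeing the data, the counts were 43 and 1862. In the fit with the shared spread, 468 of the 606 genes were called in the epithelium alone, and the layer difference itself passed in 58 of the 468. In the stroma alone 584 were called, and the layer difference passed in 111. Another 138 genes were called in both layers, 135 of them with the same sign, and 8 of the 135 had a layer difference past the threshold. Greb1, an estrogen receptor cofactor, rose in both layers (log2 difference 3.51 in epithelium, 2.37 in stroma) and its layer difference of -1.14 missed the threshold (adjusted p = 0.793). Esr1, the main estrogen receptor of the uterus, had a layer difference of -0.70 (adjusted p = 0.177), Ltf, the secreted iron-binding lactotransferrin, 0.88 (adjusted p = 0.775), and the stromal growth factor Fgf10 0.39 (adjusted p = 1).

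Among the 41 genes called in the epithelium alone, 34 rose there and 7 fell; 1.8% of all genes rose and 1.24% fell in that layer. The median rise was 1.28 on the log2 scale in the epithelium against -0.01 in the stroma for the same 34 genes. Nrn1, which encodes neuritin, a membrane-anchored protein known from neurite growth, had the smallest p of this kind. Its epithelial arrays read 7.47, 8.04 and 8.25 under vehicle and 11.04, 11.02 and 10.70 under E2. The stromal arrays read 8.15, 8.80 and 8.62 under vehicle and 8.48, 8.41 and 8.74 under E2. The epithelial groups lay far apart while the stromal groups overlapped. Nrn1 rose 8-fold in the epithelium (3.00 ± 0.21) and differed by 0.02 ± 0.21 in the stroma, with an interval from -0.44 to 0.48. The layer difference was -2.98 ± 0.30 (adjusted p = 0.00218 in limma), and it passed in all 12 fits that left out 1 array.

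Genes of the classical uterine estrogen response stood in this kind. Oxtr, the oxytocin receptor, read 7.63, 7.74 and 8.04 on the epithelial vehicle arrays and 10.93, 11.07 and 10.74 on the epithelial E2 arrays. Its stromal arrays were high throughout, at 10.88, 12.14 and 11.36 under vehicle and 11.99, 11.96 and 12.20 under E2. E2 thus raised Oxtr 8.64-fold in the layer where it was low, and the layers came closer. The layer difference was -2.52 ± 0.35 (adjusted p = 0.00932). Pgr, the progesterone receptor, showed the same layout of levels. It read 7.25, 8.03 and 7.49 on epithelial vehicle and 10.75, 10.85 and 10.12 on epithelial E2 arrays, against 10.21, 10.67 and 9.96 on stromal vehicle and 11.08, 11.20 and 11.33 on stromal E2 arrays. The stromal arrays of the 2 treatments did not overlap either, but the stromal difference of 0.92 ± 0.24 missed its threshold (adjusted p = 0.07), and the layer difference was -2.06 ± 0.34 (adjusted p = 0.0186).

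S100g, the calcium-binding protein calbindin-D9k of absorptive and uterine epithelium, was low in both layers without E2. It read 7.29, 7.55 and 7.42 on epithelial vehicle arrays and 11.30, 11.24 and 10.23 on epithelial E2 arrays. The stromal arrays read 7.16, 8.32 and 7.28 under vehicle and 8.07, 8.23 and 8.6 under E2, and 1 vehicle array lay among the E2 arrays. The rise was 11.3-fold in the epithelium (3.50 ± 0.32), and the layer difference was -2.79 ± 0.46 (adjusted p = 0.0174). Gja1, the gap junction protein connexin 43, rose 2.33-fold in the epithelium, from 11.31, 11.90 and 11.58 to 12.86, 12.88 and 12.72, and read 11.57 to 11.92 on all 6 stromal arrays. Its layer difference was -1.24 ± 0.20 (adjusted p = 0.0146). Oxtr, Pgr, S100g and Gja1 missed the threshold with the epithelial marker mean as a covariate (adjusted p = 0.0853, 0.0724, 0.135 and 0.0545), where the layer differences were -2.21, -2.29, -2.67 and -1.39. Oxtr passed in all 12 fits without 1 array, whereas Pgr and S100g missed without replicate 1 or 2 of either E2 group (adjusted p up to 0.0645 for both), S100g also without epithelial vehicle replicate 1 (0.0516), and Gja1 without epithelial E2 replicate 2 or stromal E2 replicates 1 or 2 (up to 0.0561).

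The promoter of S100g is shown because the gene is a known estrogen target and carried the 5-base arm of the estrogen response element, GGTCA, once on each strand. The 250 bases before its start lie at chrX:162964600-162964849 on the minus strand of GRCm38.p6 and are taken from RefSeq. Capitals mark the arms, whose first bases lie at positions -219 and -107 from the start. The arm was in 9 of the 26 genes with a RefSeq promoter that rose in the epithelium alone (34.6%). It was in 38.4% of all genes with such a promoter, and its presence is no evidence of binding.
S100g: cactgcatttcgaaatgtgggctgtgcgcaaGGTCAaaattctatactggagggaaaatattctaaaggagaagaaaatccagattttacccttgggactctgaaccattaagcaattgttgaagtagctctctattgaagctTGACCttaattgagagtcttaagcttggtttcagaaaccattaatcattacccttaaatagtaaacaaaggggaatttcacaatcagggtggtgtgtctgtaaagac

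The other epithelial risers ranged widely in function. Amtn, which encodes the tooth enamel adhesion protein amelotin, rose 3.22-fold, and Kap, the androgen-regulated kidney protein, rose 3.37-fold. Both read under 6 on every vehicle array and on every stromal array, and both passed in all 12 fits without 1 array. Trdn, the muscle calcium-release protein triadin, rose 5.87-fold in the epithelium with 0.19 ± 0.32 in the stroma, but its layer difference (-2.36 ± 0.46, adjusted p = 0.0404) passed in 3 of the 12 fits. All 19 Trdn probe sets were higher under E2 in the epithelium, and 4 of the 19 passed. Heph, the copper ferroxidase hephaestin, rose 3.99-fold, Sfrp4, a secreted WNT antagonist, 3.21-fold, and the orphan nuclear receptor Nr4a3 3.40-fold. These 3 passed in 4, 6 and 5 of the 12 fits.

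Of the 7 genes that fell in the epithelium alone, Gabrp fell most. It encodes the pi subunit of the GABA-A receptor, a subunit of reproductive and other epithelia. Its epithelial arrays read 11.75, 12.23 and 9.28 under vehicle and 6.99, 6.99 and 6.66 under E2, and all 6 stromal arrays lay between 5.94 and 6.14. The stromal values lay below every epithelial one and may be near the array's background, where a fall might not show. The third vehicle array, low for Gabrp, was also the vehicle array with the lowest epithelial marker mean. The fall was 4.21 ± 0.55 on the log2 scale (18.5-fold), and the layer difference was 4.29 ± 0.78 (adjusted p = 0.0289). It passed in 3 of the 12 fits, those without epithelial vehicle replicate 2 or 3 or epithelial E2 replicate 3. With the epithelial marker mean as a covariate the layer difference was 2.25 (adjusted p = 0.0556).

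Msln, a surface protein of mesothelium that epithelia can also make, read 11.33, 11.86 and 10.90 on epithelial vehicle arrays and 10.13, 10.03 and 9.99 on epithelial E2 arrays, with 7.11 to 7.35 on the stromal arrays. Its layer difference was 1.40 ± 0.26 (adjusted p = 0.0336), passed in the same 3 fits as Gabrp, and became 0.79 (adjusted p = 0.185) with the covariate. The mean of the 6 mesothelial markers, Msln among them, lay between 9.04 and 9.63 on the epithelial arrays of both treatments and between 7.03 and 7.35 on the stromal arrays. The other 5 genes that fell in the epithelium alone were Enc1, Aig1, Gpr161, Ebp and Bok, which fell by 0.74 to 0.84 on the log2 scale. Enc1, an actin-associated protein, passed in all 12 fits without 1 array, and the other 4 in 3 or 4 of the 12. All 7 were at least as high in epithelium as in stroma under vehicle, values that the choice of these genes also used.

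Of the 95 genes called in the stroma alone, 36 rose and 59 fell, where 1.57% of all genes rose and 2.05% fell in the stroma. That they outnumbered the 41 called in the epithelium alone depended on single arrays. Without epithelial vehicle replicate 3 the counts were 160 in stroma and 298 in epithelium, and without epithelial E2 replicate 3 they were 154 and 235. Prg4 had the smallest p of the whole comparison. It encodes lubricin, the lubricating proteoglycan of joints and other surfaces. The stromal arrays read 5.26, 5.27 and 5.10 under vehicle and 8.97, 8.91 and 8.51 under E2. The epithelial arrays read 5.24, 5.28 and 5.58 under vehicle and 6.02, 5.93 and 5.62 under E2, a small separation beside the stromal one. Prg4 rose 12-fold in the stroma, its epithelial difference was 0.49 ± 0.15 (adjusted p = 0.114), and the layer difference was 3.10 ± 0.21 (adjusted p = 0.000243). It stayed between 2.98 and 3.24 in the 12 fits without 1 array.

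Further stromal risers joined receptors, secreted proteins and enzymes. Tshr, the thyrotropin receptor, read 6.25, 6.89 and 6.11 on stromal vehicle and 8.91, 8.86 and 8.97 on stromal E2 arrays, while the 6 epithelial arrays lay between 5.79 and 6.04. It rose 5.65-fold, and the layer difference was 2.33 ± 0.23 (adjusted p = 0.00218). Muc13, a cell surface mucin named for epithelia, rose in the stroma. Its stromal arrays read 5.83, 6.32 and 6.36 under vehicle and 8.80, 8.78 and 8.59 under E2, and the epithelial arrays 6.19, 6.01 and 6.12 and then 6.68, 6.59 and 6.48. The layer difference of Muc13 was 2.07 ± 0.19 (adjusted p = 0.00197). Syt1, the calcium sensor of vesicle release, went from 6.85, 7.68 and 6.62 to 9.53, 9.49 and 9.84 in the stroma, with 6.47 to 6.97 on the epithelial arrays, a layer difference of 2.44 ± 0.33 (adjusted p = 0.00857). Tshr, Muc13 and Syt1 passed in all 12 fits without 1 array and with the epithelial marker covariate.

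Others in this group were Kcnab1, a potassium channel subunit (3.53-fold), Ear6, a ribonuclease (5.23-fold), Adh1, an alcohol and retinol dehydrogenase (5.29-fold), and Slco2a1, the prostaglandin transporter (4.30-fold). Slco2a1 read 8.35, 8.95 and 9.67 on stromal vehicle and 11.08, 11.06 and 11.14 on stromal E2 arrays, and it changed which layer was higher, with 10.07 to 10.97 on the 6 epithelial arrays. Kcnab1 and Ear6 passed in all 12 fits without 1 array, Adh1 in 7 and Slco2a1 in 6. Bmp8a, a ligand of the BMP family, read 7.54, 8.38 and 7.57 on stromal vehicle arrays and 9.80, 9.80 and 9.82 on stromal E2 arrays. On the epithelial arrays it read 7.01, 7.10 and 6.72 and then 7.56, 7.71 and 7.32, also without overlap. Its layer difference of 1.39 ± 0.28 (adjusted p = 0.0488) passed in 3 of the 12 fits, those without epithelial vehicle replicate 3, epithelial E2 replicate 3 or stromal vehicle replicate 2, and reached 0.133 in the others.

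**Figure D2:**
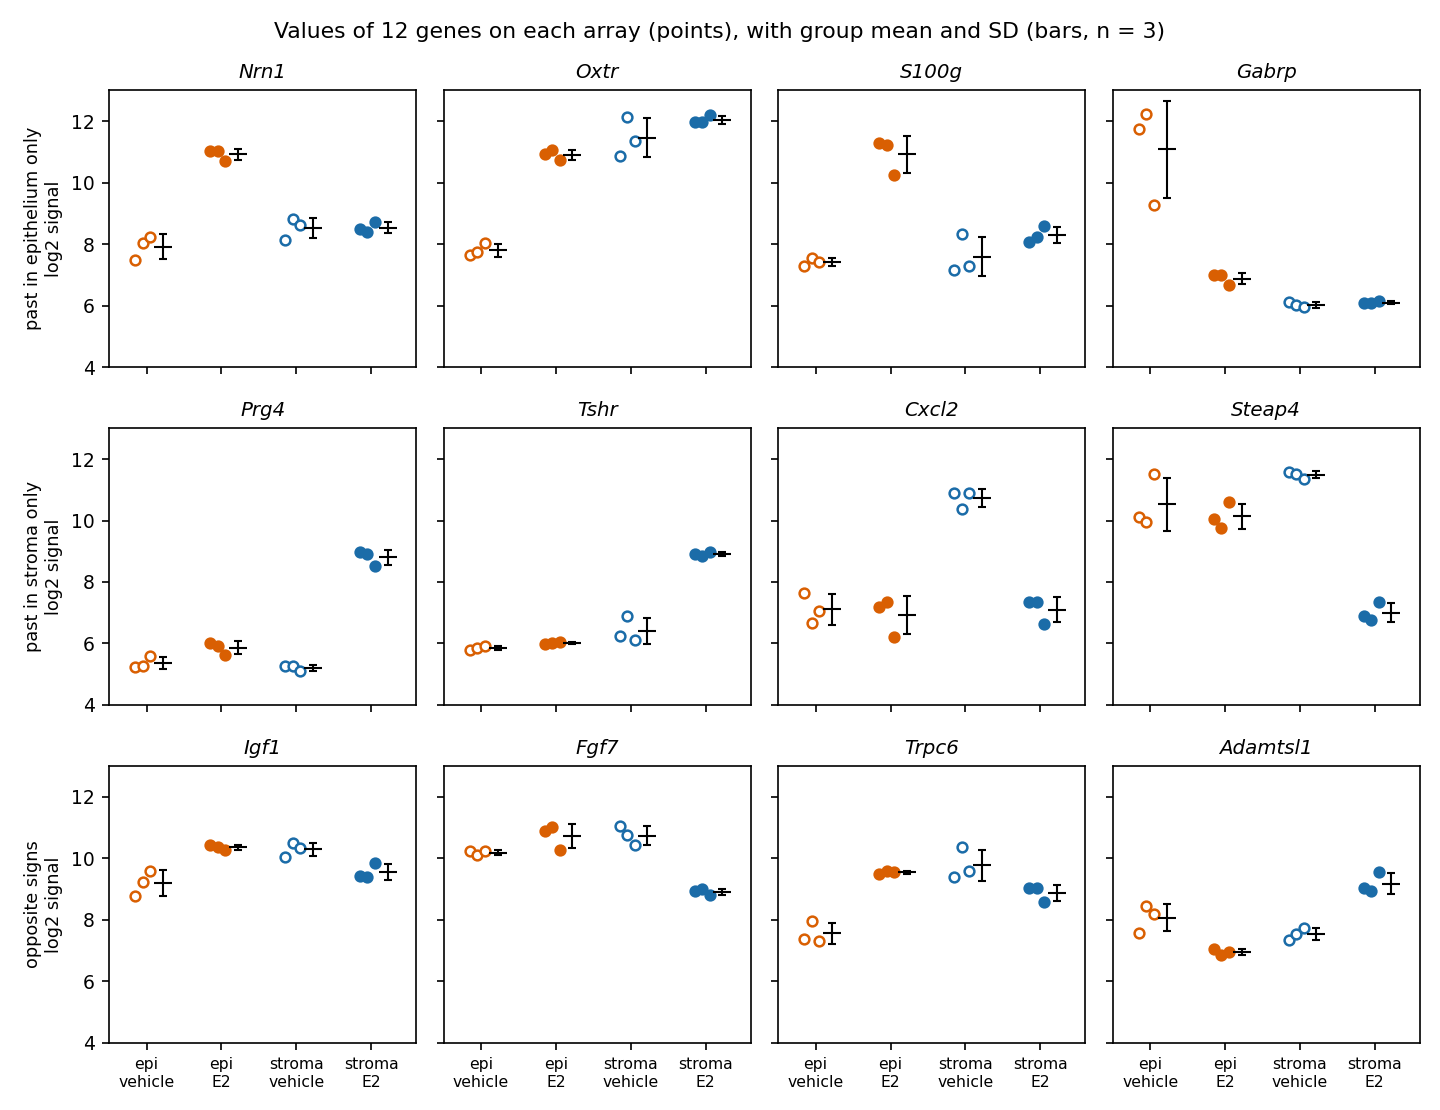
Log2 signal of 12 genes on each of the 12 arrays (open points vehicle, filled points E2, orange epithelial, blue stromal), with the group mean and SD of 3 arrays beside them. In the upper row only the orange points separate clearly by treatment, in the middle row the blue points do, and in the lower row the colours move in opposite directions.

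Of the 59 genes that fell in the stroma alone, 54 were higher in stroma than in epithelium under vehicle, against 9288 of all 19938 genes. In 32 of the 59 the layers lay within 0.5 on the log2 scale of each other under E2, against 10 of 59 under vehicle. Over all 19938 genes 17077 lay that close under E2 and 16304 under vehicle. The median excess of the stroma in the 59 genes was 1.32 under vehicle and -0.01 under E2. These genes were chosen for a response more negative in stroma, so a lower excess under E2 follows from the choice. The vehicle values also entered that choice, so the counts under vehicle describe these genes and carry no test. In 28 of the 59 the gap narrowed, in 26 the epithelium became the higher layer, and in 5 the gap widened.

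Cxcl2 and Cxcl3 are chemokines that attract neutrophils, and both lie on chromosome 5. On the stromal arrays Cxcl2 read 10.89, 10.38 and 10.91 under vehicle and 7.33, 7.34 and 6.62 under E2. Its epithelial arrays read 7.64, 6.65 and 7.04 and then 7.20, 7.34 and 6.2. The stromal E2 arrays thus fell among the epithelial ones. Cxcl2 fell 12.4-fold in the stroma, its epithelial difference was -0.20 ± 0.33, and the layer difference was -3.43 ± 0.47 (adjusted p = 0.00857). Cxcl3 read 9.36, 9.08 and 9.6 and then 6.89, 6.85 and 6.30 on the stromal arrays, and 6.84, 5.79 and 6.73 and then 6.56, 6.55 and 6.32 on the epithelial arrays, with a layer difference of -2.69 ± 0.36 (adjusted p = 0.00857). These near-identical chemokine genes can share probes, so their values need not be independent. Both passed in all 12 fits without 1 array and missed with the epithelial marker covariate (-3.24, adjusted p = 0.0646 for Cxcl2, and -2.15, adjusted p = 0.0677 for Cxcl3).

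Nfkbia, the inhibitor that NF-kappaB induces to shut itself off, also fell in the stroma, and is one of the genes whose layers moved in opposite directions. Its stromal arrays read 11.15, 11.37 and 11.29 under vehicle and 10.19, 10.21 and 10.51 under E2. The epithelial arrays read 10.42, 10.24 and 10.87 and then 10.93, 10.83 and 11.11, and 1 vehicle array overlapped the E2 arrays. The stroma fell by 0.97 ± 0.16, the epithelial difference was 0.44 ± 0.16 (adjusted p = 0.174), and the layer difference was -1.41 ± 0.22 (adjusted p = 0.0146). It missed without stromal E2 replicate 1 or 2 (adjusted p = 0.0532 and 0.0561) and with the covariate (-0.95, adjusted p = 0.101).

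The promoters of these 3 genes are shown because each holds the NF-kappaB motif, searched as GGGA, any base, then TTTCC, which 4 of the 142 member genes with a RefSeq promoter had within 250 bases (2.82%), against 0.414% of all 27025 genes in that table. The fourth was Krt23. Capitals mark this motif, read on either strand, which begins at positions -97, -73 and -29 from the start of Cxcl2, Cxcl3 and Nfkbia. In Nfkbia they also mark 2 GGTCA arms, at -134 and -13. The stretches are chr5:90903649-90903898 (plus), chr5:90785851-90786100 (plus) and chr12:55492648-55492897 (minus) of GRCm38.p6, from RefSeq. A match is a description of the letters and no evidence of binding.
Cxcl2: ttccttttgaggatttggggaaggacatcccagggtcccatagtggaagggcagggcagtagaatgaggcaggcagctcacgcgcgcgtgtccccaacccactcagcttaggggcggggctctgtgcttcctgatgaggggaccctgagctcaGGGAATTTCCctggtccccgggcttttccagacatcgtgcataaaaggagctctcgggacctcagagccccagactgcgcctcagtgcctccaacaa
Cxcl3: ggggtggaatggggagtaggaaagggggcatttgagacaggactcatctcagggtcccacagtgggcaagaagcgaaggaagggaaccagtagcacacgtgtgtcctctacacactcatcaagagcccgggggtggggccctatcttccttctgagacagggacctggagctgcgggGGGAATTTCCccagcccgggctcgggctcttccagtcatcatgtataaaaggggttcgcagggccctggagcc
Nfkbia: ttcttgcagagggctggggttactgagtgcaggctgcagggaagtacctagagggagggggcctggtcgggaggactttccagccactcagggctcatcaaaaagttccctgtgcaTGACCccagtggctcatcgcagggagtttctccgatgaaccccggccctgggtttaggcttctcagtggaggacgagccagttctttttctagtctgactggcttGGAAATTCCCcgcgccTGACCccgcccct

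Steap4, a metalloreductase induced by inflammation, had the second largest layer difference in size of all the genes named. Its stromal arrays read 11.59, 11.53 and 11.36 under vehicle and 6.90, 6.77 and 7.35 under E2, and its epithelial arrays 10.12, 9.94 and 11.52 and then 10.04, 9.77 and 10.59. The epithelial groups overlapped. It fell 22.4-fold in the stroma (4.49 ± 0.36 on the log2 scale), the epithelial difference was -0.40 ± 0.36, and the layer difference was -4.09 ± 0.50 (adjusted p = 0.00527). Here the stroma ended below the epithelium. Il1a, the cytokine interleukin 1 alpha, was lower in stroma already under vehicle. It read 10.64, 9.77 and 10.53 and then 7.34, 7.57 and 6.72 on stromal arrays, and 11.75, 12.25 and 11.32 and then 10.91, 11 and 10.91 on epithelial arrays. Its epithelial arrays did not overlap between treatments, and the epithelial difference was -0.83 ± 0.28 (adjusted p = 0.154). Its layer difference of -2.27 ± 0.40 (adjusted p = 0.0249) missed in 7 of the 12 fits, those without epithelial vehicle replicate 1, epithelial E2 replicates 1 or 2, stromal vehicle replicates 1 or 3 or stromal E2 replicates 1 or 3, with adjusted p from 0.0549 to 0.0802.

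Ifitm1, an interferon-induced membrane protein, read 12.19, 12.09 and 11.48 and then 9.32, 9.35 and 8.75 in the stroma, while the epithelial arrays lay between 8.03 and 9.15. It has 2 probe sets, and both passed, with layer differences of -3.39 and -2.93. Lrrc15, a membrane protein of activated fibroblasts, read 10.91, 11.57 and 11.03 and then 8.33, 8.40 and 8.16 in the stroma, against 7.17 to 8.46 on the epithelial arrays. Its layer difference was -3.28 ± 0.38 (adjusted p = 0.00404), with both layers at the same mean under E2 (a gap of -0.01). Hgf, the hepatocyte growth factor that mesenchyme sends to epithelium, read 9.25, 8.94 and 9.23 and then 5.98, 6.33 and 6.22 in the stroma. On the epithelial arrays it read 7.15, 6.15 and 7.72 under vehicle and 6.33, 6.27 and 6.04 under E2. The layer difference of Hgf was -2.17 ± 0.42 (adjusted p = 0.0409). It passed in 3 of the 12 fits, those without epithelial vehicle replicate 2 or 3 or epithelial E2 replicate 3, reached 0.123 in the others, and was -1.13 (adjusted p = 0.164) with the covariate. Ifitm1 and Lrrc15 passed in all 12 fits. Ifitm1 had an adjusted p of 0.0528 with the covariate.

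Other genes that fell in the stroma alone were B3galt5, a glycosyltransferase (3.36-fold), Irgm1, an interferon-induced GTPase (2.92-fold), Egln3, an oxygen-sensing prolyl hydroxylase (2.82-fold), Cemip, which takes part in hyaluronan breakdown (8.15-fold), Igfbp4, an IGF-binding protein (2.75-fold), and Lrat, which esterifies retinol (3.09-fold). B3galt5, Irgm1 and Egln3 passed in all 12 fits without 1 array, Cemip and Igfbp4 in 4 and Lrat in 3. With the epithelial marker covariate B3galt5 passed, while Irgm1 (adjusted p = 0.0632), Egln3 (0.117), Cemip (0.267), Igfbp4 (0.314) and Lrat (0.204) missed. Cdh11, the cadherin of mesenchyme, fell 1.97-fold from a level that was alike in both layers under vehicle (12.55 in stroma, 12.54 in epithelium), and its layer difference passed in 5 of the 12 fits.

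In the 40 opposed genes, 26 were higher under E2 in the epithelium and lower in the stroma, and 14 the reverse. In 3 of them both layers passed the adjusted threshold; in 17 the epithelium alone passed it, in 16 the stroma alone, and in 4 neither. The 3 were Adamtsl1, Fbln5 and Mapre2, the last of which falls outside the naming rule and is named because its values placed it here. Adamtsl1, a secreted relative of the ADAMTS proteases without their catalytic part, read 7.58, 8.44 and 8.2 on epithelial vehicle and 7.04, 6.84 and 6.96 on epithelial E2 arrays. In the stroma it read 7.35, 7.54 and 7.73 and then 9.05, 8.94 and 9.56, so the groups separated in both layers, in opposite directions. It fell 2.18-fold in the epithelium (adjusted p = 0.0188) and rose 3.12-fold in the stroma (adjusted p = 0.00151), with a layer difference of 2.76 ± 0.30 (adjusted p = 0.00333).

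Fbln5, the elastic fibre protein fibulin 5, read 10.58, 10.72 and 10.89 and then 10.26, 9.91 and 10.07 in the epithelium, a fall of 0.65 ± 0.12. In the stroma it read 10.05, 10.33 and 10.30 and then 10.86, 10.81 and 11.06, a rise of 0.68 ± 0.12. The layer that was lower became the higher one. Mapre2, a protein of microtubule ends, went the other way. It read 8.14, 8.10 and 8.28 and then 8.94, 8.85 and 8.65 in the epithelium, and 10.14, 10.21 and 10.08 and then 9.42, 9.49 and 9.73 in the stroma. The layer differences were 1.33 ± 0.17 for Fbln5 (adjusted p = 0.00691) and -1.24 ± 0.15 for Mapre2 (adjusted p = 0.00527). Adamtsl1, Fbln5 and Mapre2 passed in all 12 fits without 1 array.

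Igf1, the growth factor by which stroma is known to drive epithelial growth in the uterus, was higher under E2 in the epithelial layer and lower in the stroma. Its epithelial arrays read 8.78, 9.23 and 9.6 under vehicle and 10.45, 10.36 and 10.29 under E2. Its stromal arrays read 10.05, 10.49 and 10.33 under vehicle and 9.43, 9.40 and 9.86 under E2. Neither layer's groups overlapped, and the layer with the higher level turned from stroma to epithelium. Igf1 rose 2.24-fold in the epithelium (1.16 ± 0.20, adjusted p = 0.0105). The stromal difference of -0.73 ± 0.20 missed its threshold (adjusted p = 0.078), and the layer difference was -1.89 ± 0.28 (adjusted p = 0.0111). It passed in all 12 fits without 1 array and missed with the epithelial marker covariate (-1.47, adjusted p = 0.107). The epithelial vehicle array highest for Igf1 was the third, which also had the highest stromal and lowest epithelial marker mean of that group; the part of stromal cells in this value was not tested beyond that covariate.

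The Igf1 promoter is shown because it held both a GGTCA arm and a match to AP-1, searched loosely as TGA, any base, then TCA. They stand in capitals at positions -160 and -37, and the match reads TGAATCA. It covers chr10:87860861-87861110 on the plus strand of GRCm38.p6, from RefSeq. Across the 142 member genes with a promoter in that table, this loose AP-1 pattern was present in 12.7% (7.82% of all its genes) and the arm in 44.4% (38.4%). The full element, GGTCA and TGACC with any 3 bases between them, was in 0 of 142 and in 0.0666% of all genes. Motifs were read on both strands, and the arm is contained in the full element. Nrn1 and Prg4 had no entry in the table.
Igf1: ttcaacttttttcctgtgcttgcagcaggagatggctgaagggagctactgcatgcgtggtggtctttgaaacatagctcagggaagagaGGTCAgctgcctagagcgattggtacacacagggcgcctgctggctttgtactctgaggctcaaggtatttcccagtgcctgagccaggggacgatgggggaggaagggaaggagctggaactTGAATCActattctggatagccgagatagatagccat

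Fgf7, the keratinocyte growth factor, also a stromal signal to epithelium, fell in the stroma. It read 11.06, 10.76 and 10.42 and then 8.94, 8.99 and 8.81 there, and 10.23, 10.11 and 10.23 and then 10.88, 11.01 and 10.28 in the epithelium. The stromal fall was 3.55-fold, the epithelial difference was 0.54 ± 0.19 (adjusted p = 0.173), and the layer difference was -2.36 ± 0.27 (adjusted p = 0.00378). Trpc6, a calcium-permeable channel, rose 3.96-fold in the epithelium, from 7.38, 7.97 and 7.32 to 9.48, 9.59 and 9.56. In the stroma it read 9.39, 10.36 and 9.59 and then 9.04, 9.03 and 8.57, a difference of -0.90 ± 0.24 (adjusted p = 0.0776), and the layer difference was -2.88 ± 0.34 (adjusted p = 0.00458). Tlnrd1, a talin-related protein, rose 3.01-fold in the epithelium, from 7.32, 7.64 and 7.97 to 9.24, 9.36 and 9.11. Its stromal arrays read 8.03, 8.01 and 7.88 and then 7.53, 7.66 and 7.57, without overlap (-0.39 ± 0.14, adjusted p = 0.215). The layer difference of Tlnrd1 was -1.98 ± 0.20 (adjusted p = 0.00218). Fgf7, Trpc6 and Tlnrd1 passed in all 12 fits without 1 array and with the covariate.

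Fabp4, a fatty acid carrier of fat cells, macrophages and capillaries, was 3.94 higher in stroma on the log2 scale under vehicle and 1.97 under E2. It fell 2.38-fold in the stroma, and its epithelial difference was 0.72 ± 0.17 (adjusted p = 0.0515). Itpkb, an inositol phosphate kinase, fell 2.15-fold in the stroma with 0.25 ± 0.10 in the epithelium, and Doc2b, a vesicle-release protein, fell 2.23-fold with 0.41 ± 0.13. These 3 passed in all 12 fits without 1 array.

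Genes with the opposite pattern included Sema3c, a secreted guidance protein, and Itga3, an integrin subunit that binds laminin. Sema3c read 9.46, 10.01 and 9.16 and then 8.38, 8.58 and 8.46 in the epithelium, and 7.69, 8.04 and 7.82 and then 9.14, 9.21 and 8.21 in the stroma. Neither layer passed alone (adjusted p = 0.0527 and 0.0628), and the layer difference of 2.08 ± 0.37 did (adjusted p = 0.0251). It missed in 7 of the 12 fits, those without epithelial vehicle replicate 1, stromal vehicle replicates 1 or 3 or replicates 1 or 2 of either E2 group, with adjusted p from 0.0566 to 0.0842. Itga3 fell in the epithelium from 11.72, 12.17 and 11.25 to 10.57, 10.72 and 10.76. In the stroma it read 9.14, 9.28 and 9.27 and then 9.87, 9.97 and 9.81, a difference of 0.66 ± 0.18 (adjusted p = 0.0775). Its layer difference was 1.69 ± 0.25 (adjusted p = 0.012) and passed in all 12 fits. Its 3 epithelial vehicle arrays stood in the same order as the epithelial marker means, and with that mean as covariate the layer difference was 1.06 (adjusted p = 0.0259). Krt7, an epithelial keratin, rose in the stroma from 7.24, 7.76 and 7.17 to 8.86, 8.73 and 8.52 (2.49-fold), where it stayed below every epithelial array (10.56 to 11.91). Its layer difference of 1.93 ± 0.39 (adjusted p = 0.0495) passed in 2 of the 12 fits. On the stromal arrays the mean of the 19 epithelial markers, Krt7 among them, read 7.04, 6.94 and 6.85 under vehicle. Under E2 it read 7.37, 7.35 and 7.18, and the part of epithelial cells in the stromal rise of Krt7 was not tested.

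Adamts3, a protease that processes procollagen and VEGF-C, gave the most probe sets. The array holds 16 with this symbol, and all 16 passed in the opposed pattern (0.91% of all probe sets passed), with layer differences from -3.51 to -1.62. Over the 16 the median was 1.17 in the epithelium and -1.43 in the stroma. The brightest, which stands for the gene, had the smallest difference of the 16. It read 8.12, 8.87 and 8.89 and then 9.76, 9.54 and 9.89 in the epithelium, and 8.93, 9.12 and 9.09 and then 8.62, 8.54 and 8.42 in the stroma. Its layer difference was -1.62 ± 0.26 (adjusted p = 0.0146), and missed without stromal E2 replicate 2 (adjusted p = 0.0526). The probe sets share the RNA of the same arrays and are not replicates.

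**Figure D3:**
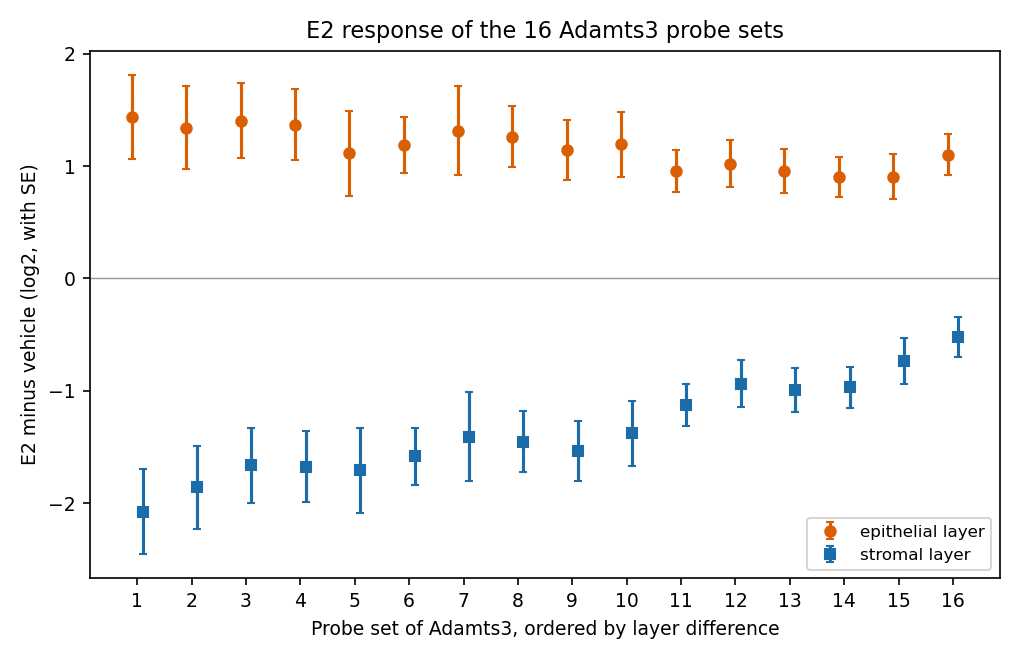
E2-minus-vehicle difference in log2 units, with its SE, of the 16 Adamts3 probe sets in the epithelial (orange) and stromal (blue) layer, ordered by layer difference. Every orange point lies above 0 and every blue point below 0, and the stromal differences vary more between probe sets than the epithelial ones.

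In the 8 genes that moved the same way in both layers, the layer difference is one of size. Akr1c14, a hydroxysteroid dehydrogenase that converts progesterone and androgen metabolites, rose in both. It read 5.04, 6.10 and 5.43 and then 10.75, 10.53 and 10.89 in the epithelium, and 9.44, 10.33 and 9.18 and then 12.01, 12.05 and 12.28 in the stroma. The rise was 36.7-fold in the epithelium and 5.53-fold in the stroma, with a layer difference of -2.73 ± 0.42 (adjusted p = 0.013). Aldh1a1, a retinaldehyde dehydrogenase that makes retinoic acid, rose more in the stroma. It read 6.37, 7.11 and 7.21 and then 10.63, 10.88 and 10.37 there (13.3-fold), and 6.37, 6.15 and 7.21 and then 8.06, 7.64 and 7.79 in the epithelium (2.38-fold). Its layer difference of 2.48 ± 0.40 (adjusted p = 0.0156) missed without epithelial E2 replicate 2 or stromal E2 replicates 1 or 2 (adjusted p from 0.0532 to 0.0613).

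Idh1, the cytosolic isocitrate dehydrogenase that makes NADPH, rose 3.69-fold in the epithelium, from 8.93, 8.95 and 9.14 to 10.86, 10.96 and 10.85. It rose 1.45-fold in the stroma, from 9.92, 10.07 and 9.90 to 10.36, 10.44 and 10.70. Angpt1, the angiopoietin that steadies vessels, fell in both layers. Its stromal arrays read 8.06, 7.28 and 7.98 and then 4.76, 4.79 and 4.66, a fall of 8.21-fold, and its epithelial arrays 5.45, 5.11 and 5.39 and then 4.52, 4.57 and 4.55. Values this low may be near the array's background, so the fold of Angpt1 may understate the change. The epithelial arrays started lower and may have had less room to fall. The part of the starting levels in the layer difference of Angpt1 was not tested. The layer differences were -1.34 ± 0.15 for Idh1 and -2.27 ± 0.25 for Angpt1 (adjusted p = 0.00333 for both). Akr1c14, Idh1 and Angpt1 passed in all 12 fits. The remaining 4 were Ccdc3 and Cryl1, which rose more in stroma, and Ccbe1 and Nrep, which fell more in stroma.

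The layer difference can also be read as a change in the gap between the layers, stroma minus epithelium. Of the 184 genes, the layer with the higher mean changed between vehicle and E2 in 84, the gap widened in 47 and narrowed in 53. Over all 19938 genes these numbers were 4246, 6549 and 9143. Under vehicle 133 of the 184 were higher in stroma, against 9288 of 19938. The 36 stromal risers split into 23 whose gap widened and 13 that turned. Among the 26 opposed genes that were lower in stroma under E2, 25 were higher in stroma under vehicle and 17 of the 26 turned, with a median gap of 0.88 before and -0.46 after. These gaps are the values the layer difference is made from, so they describe the members and carry no test.

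**Figure D4:**
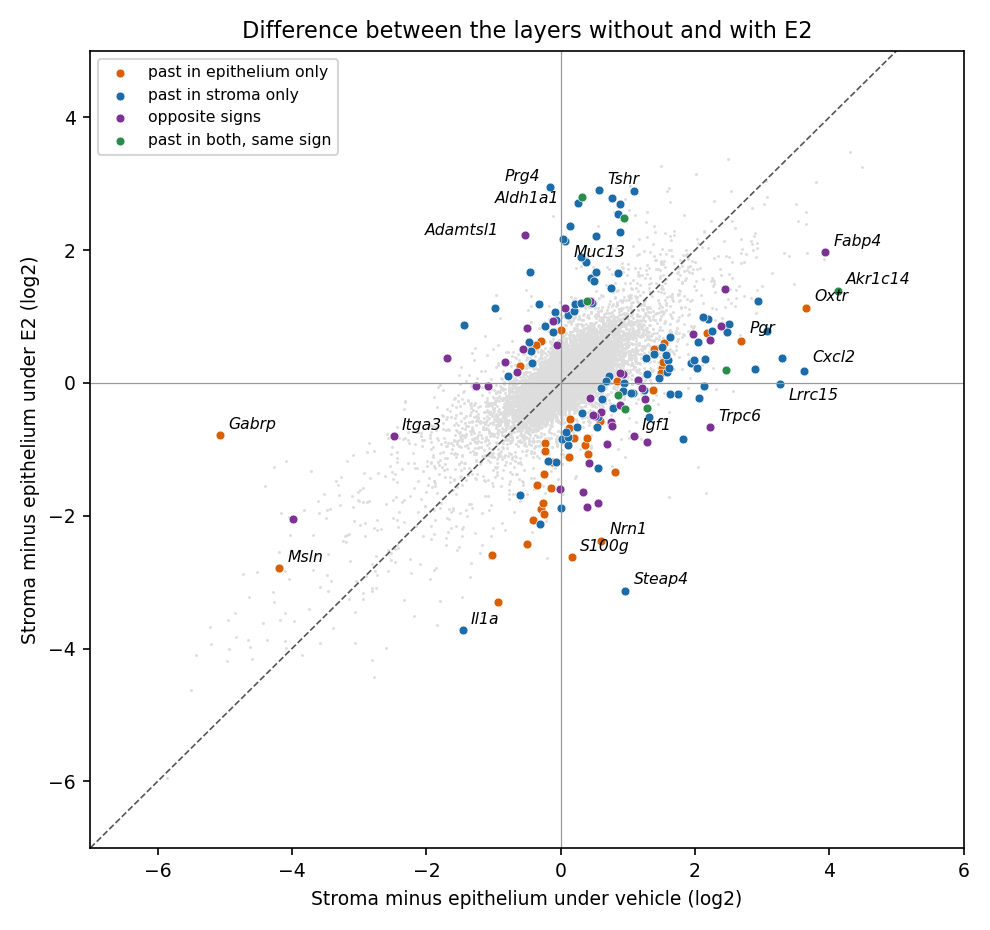
Stroma-minus-epithelium difference of each gene under vehicle (x axis) and under E2 (y axis), in log2 units, with the 184 member genes coloured by kind and the other genes in grey. On the dashed line the layers differ by the same amount with and without E2; Cxcl2 and Lrrc15 lie on the right close to 0 on the y axis, and Prg4 lies near 0 on the x axis at 2.94 on the y axis.

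Gene lists chosen with earlier results known place these members among their neighbours, each count to be read against the 0.923% of all genes that passed. Of the 29 measured genes of a list of uterine estrogen-responsive genes, 6 passed (20.7%), Oxtr, Igf1, Gja1, S100g and Pgr toward the epithelium and Fos toward the stroma. Fos, an AP-1 subunit, rose 2.56-fold in the stroma with 0.43 ± 0.13 in the epithelium. At an adjusted p of 0.0499 it was the member nearest the threshold, leaving aside predicted gene models, small RNAs and olfactory or vomeronasal receptors. The layer difference of Fos was 0.93 ± 0.19, and the nearest gene outside by the same rule, the peptide hormone Uts2, had 0.88 ± 0.18 (adjusted p = 0.0507). Jun and Egr2, also immediate early genes, fell in the stroma (1.76-fold and 2.25-fold), and Nr4a3 rose in the epithelium, so 4 of 23 immediate early genes passed, 1 toward stroma and 3 toward epithelium. These calls were lost in most fits without 1 array: Fos passed in 2 of the 12, Egr2 in 4, and Jun and Nr4a3 in 5 each. With the epithelial marker covariate 0 of the 4 passed (adjusted p from 0.209 for Nr4a3 to 0.372 for Egr2). The estrogen-responsive list had medians of 0.10 in epithelium and 0.15 in stroma, while the median of its gene-wise layer differences was -0.18.

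Lists of inflammatory genes differed from each other. Of 19 NF-kappaB feedback genes, 10 fell in the stroma (2.05% of all genes did) and 2 in the epithelium (1.24%), and 0 rose in either. In 3 the layer difference passed the threshold, Steap4, Nfkbia and Bcl3. Bcl3 passed in 3 of the 12 fits without 1 array and missed with the epithelial marker covariate (adjusted p = 0.355 in limma). The medians of this list were -0.60 in the stroma and -0.12 in the epithelium. Of 30 cytokines and chemokines, 11 fell in the stroma and 6 in the epithelium, and 1 rose in each layer. The layer difference passed in 4, and the medians were -0.51 and -0.40. Il17d rose in the stroma (2.45-fold) against the other members that passed, Cxcl2, Cxcl3 and Il1a. Of 24 interferon response genes, 2 fell and 1 rose in the stroma, and 0 fell or rose in the epithelium. The medians were -0.11 and -0.31, and Irgm1 alone passed the layer difference. Whether a list's medians differ between the layers was not tested. The leukocyte markers moved beside these lists: their median was -0.40 in the stroma and 0.41 in the epithelium, 1 of 16 fell in the stroma and 0 of 16 passed the layer difference. Their part in the inflammatory values was not tested.

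**Figure D5:**
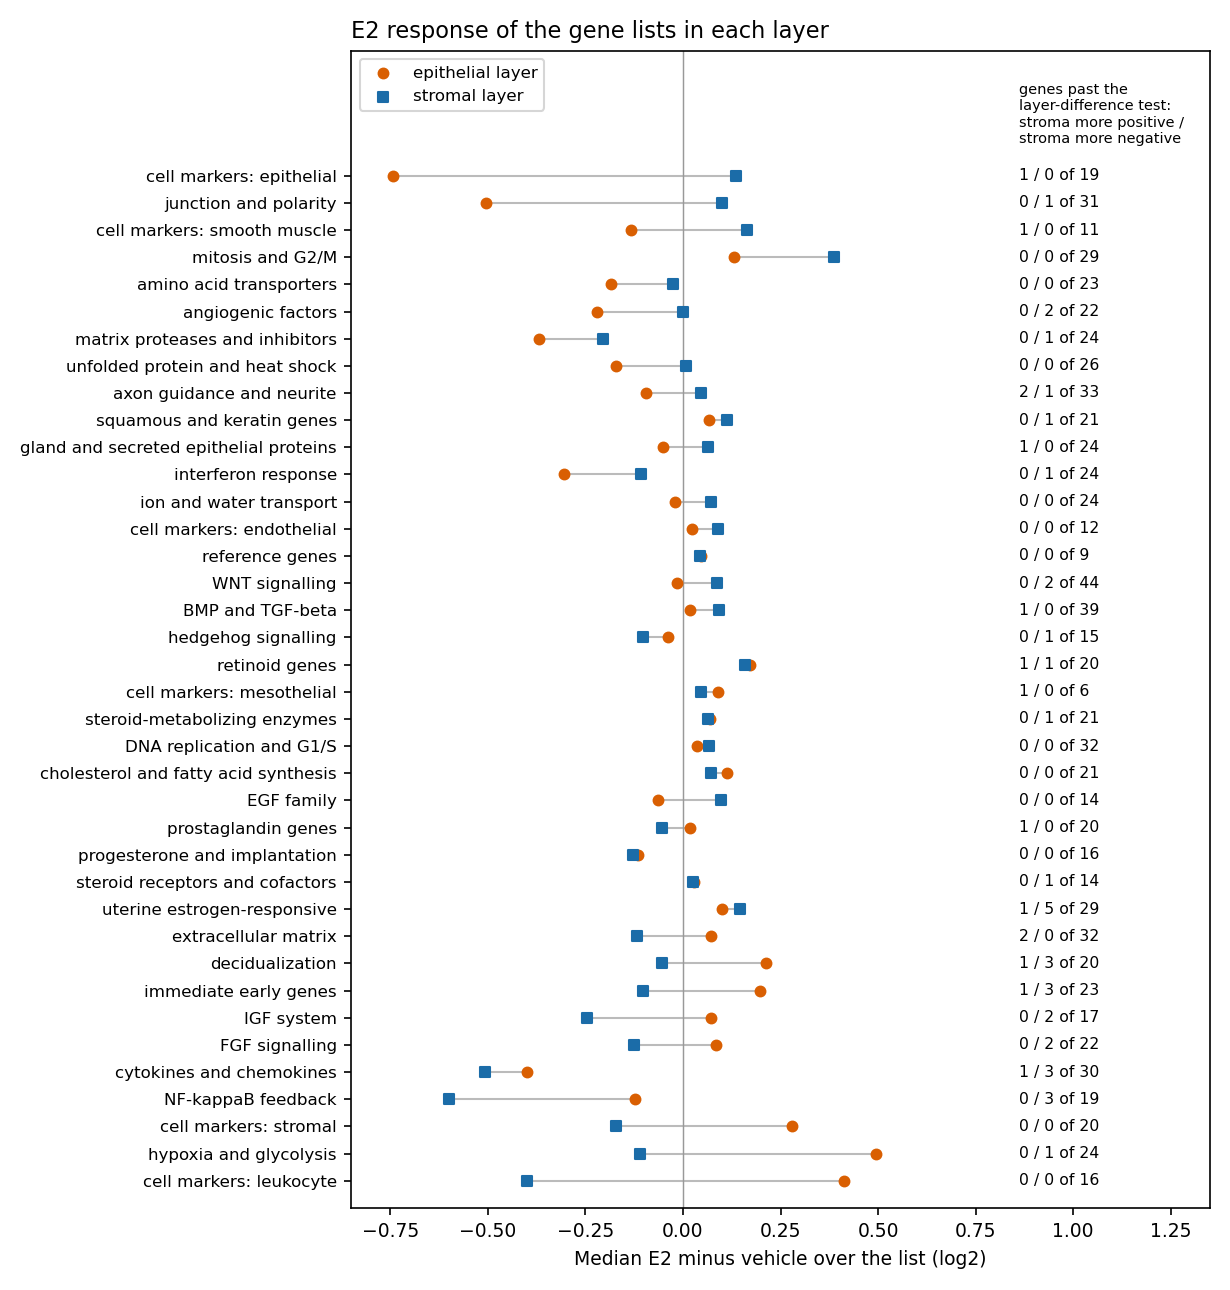
Median E2-minus-vehicle difference of each gene list in the epithelial (orange circles) and stromal (blue squares) layer, in log2 units, ordered by the median layer difference. The numbers at the right count the list genes past the layer-difference test, more positive in stroma and then more negative in stroma, of those measured; hypoxia and glycolysis genes and leukocyte markers stand at the bottom, epithelial markers at the top.

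Hypoxia and glycolysis genes had layer differences of 1 sign. All 24 measured had a layer difference below 0, a response more positive in epithelium, against 10001 of all 19938 genes. Of the 24, 10 rose in the epithelium (1.8% of all genes did). Among them were the carbonic anhydrase Car9 (1.49), the glycolytic regulator Pfkfb3 (1.46) and the vasodilator peptide Adm (1.38), in log2 units. Egln3 was the 1 member whose layer difference passed. The list medians were 0.49 in the epithelium and -0.11 in the stroma. At the other end, all 19 epithelial markers had a layer difference above 0, with medians of -0.74 in the epithelium and 0.14 in the stroma, and 1 passed, Krt7. Of 31 junction and polarity genes, 25 lay above 0, the median layer difference was 0.62, and Gja1, which passed, lay on the other side. The part of a changing cell mixture in these lists was not tested. Mitosis genes had medians above 0 in both layers (0.13 in epithelium, 0.39 in stroma), and 0 of 29 passed the layer difference.

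Signalling lists gave few members each. In lists this short 1 member already makes a share above the 0.923% of all genes that passed, so the shares below do not set them apart. The IGF system had Igf1 and Igfbp4 of 17 (11.8%), and FGF signalling had Fgf7 and Spred2 of 22 (9.09%). WNT signalling had Lef1 and Sfrp4 of 44 (4.55%), and BMP and TGF-beta genes had Bmp8a of 39 (2.56%). Hedgehog signalling had Boc of 15 (6.67%), and retinoid genes had Aldh1a1 and Lrat of 20 (10%). Lef1, a transcription factor of the WNT pathway, fell 1.84-fold in the stroma with 0.02 ± 0.10 in the epithelium. Boc, a hedgehog co-receptor, fell 1.75-fold in the stroma with 0.25 ± 0.12 in the epithelium. Spred2, an inhibitor of growth factor signalling, rose 1.40-fold in the epithelium with -0.20 ± 0.10 in the stroma. Of the 12 fits without 1 array, the layer difference passed in 10 for Lef1, 9 for Boc and 2 for Spred2, and it missed for all 3 with the epithelial marker covariate (adjusted p = 0.154, 0.15 and 0.356). No member passed among the 21 cholesterol and fatty acid synthesis, 32 DNA replication, 26 unfolded protein or 14 EGF family genes measured. Against 0.923% of all genes, 0 in lists this short does not set them apart.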

How the data were processed

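RNA of 12 samples was hybridised to Affymetrix Mouse Gene 1.0 ST arrays, 1 array a sample, in 4 groups of 3. The authors deposited log2 values for 35556 probe sets, made with RMA (background correction, quantile normalization and probe summary in 1 step) per the submitters' processing notes; the software version is not given in the sources used here. The values were used as deposited, with no filter and no further scaling.

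Gene names came from the platform annotation. Tested were the 23410 probe sets with a symbol, 21789 with 1 symbol and 1621 with several; 12146 had none. A model with 1 mean for each group was fitted to all 12 arrays with limma 3.58.1 in R 4.3.3, with 1 variance for each probe set. Contrasts gave the E2 response of each layer and their difference (stromal minus epithelial). The Benjamini-Hochberg adjustment ran over the tested probe sets, with a threshold of 0.05, and errors are SEs of the fit. The fit was tested on simulated data with 1 spread for each probe set in both layers and no array that stood apart. That run does not cover the unequal spread of the layers seen here.

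Named genes were those with the 12 smallest p in each direction, the 8 largest of each kind and direction, up to 5 members of each list past the threshold and 10 always named, 87 in all, of which a selection is given. The members and the 38 gene lists (846 names measured, 55 not matched) were chosen with earlier results of these data known. Replicate numbers were not taken as pairs: same-numbered arrays correlated between -0.42 and 0.27 in their deviations from the group means. The number of arrays limits the precision. Alternatives covered the probe sets tested, low values, scaling, the variance model, array weights, blocks, thresholds, the epithelial marker mean as a covariate and each array left out. Promoters came from RefSeq (GRCm38.p6) and matched 142 of the 184 genes.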

Additional observations from a re-analysis of the deposited data

Results flagged for a closer look

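The E2 response differed between the layers by a test of the difference itself in 184 genes. Among the genes described, a layer difference (stromal minus epithelial response, log2) above 0 was found for Prg4 (3.10), Muc13 (2.07), Tshr (2.33), Adamtsl1 (2.76), Fbln5 (1.33), Syt1 (2.44), Itga3 (1.69), Aldh1a1 (2.48), Sema3c (2.08), Gabrp (4.29), Msln (1.40) and Bmp8a (1.39). It lay below 0 for Nrn1 (-2.98), Tlnrd1 (-1.98), Angpt1 (-2.27), Idh1 (-1.34), Fgf7 (-2.36), Lrrc15 (-3.28), Trpc6 (-2.88), Steap4 (-4.09), Ifitm1 (-2.93), Cxcl3 (-2.69), Cxcl2 (-3.43), Oxtr (-2.52), Igf1 (-1.89), Akr1c14 (-2.73), Nfkbia (-1.41), Gja1 (-1.24), Adamts3 (-1.62), S100g (-2.79), Pgr (-2.06), Il1a (-2.27) and Hgf (-2.17). Groups of 3 arrays are too small for a test of single arrays that stand apart. Outside the named probe sets, 6 of the 12146 without a symbol also had a layer difference past the threshold when all probe sets were tested together, 1 more positive in stroma and 5 in epithelium.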

How the results depend on the processing

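Counts are given as layer differences past the threshold (184: 60 toward stroma, 124 toward epithelium), epithelial and stromal responses (606 and 722), genes changed in epithelium alone, stroma alone or in opposite directions (41, 95, 40), and gaps turned, wider and narrower (84, 47, 53). The causes of the changes below were not tested unless stated. With all 35556 probe sets tested the counts were 102 (31, 71), 20, 55 and 25, and 47, 25 and 30. Quantile normalization gave 1000 epithelial responses, 68 in epithelium alone and 61 opposed, and cyclic loess 64 opposed. Array weights gave 3984 (1629, 2355), 4130 and 3928, then 1541, 937 and 969, and 1931, 516 and 1537. A variance weight for each layer gave 128 epithelial and 2389 stromal responses and 22 in epithelium alone, with 150 layer differences. An adjusted p under 0.01 gave 38 (11, 27), 187 and 339, then 8, 19 and 11, and 15, 8 and 15; one under 0.1 gave 357 (119, 238), 1156 epithelial responses, then 90, 162 and 86, and 153, 78 and 126. The epithelial marker mean as a covariate, centred within groups, gave 715 (356, 359), 1494 epithelial responses, then 299, 203 and 185, and 249, 108 and 358. Not centred, a choice made after seeing the data, it gave 75 (38, 37), 244 epithelial responses, 10 in epithelium alone and 34 in stroma alone, and 30, 13 and 32. Fits of each layer's 6 arrays alone, also added later, gave 43 and 1862 responses. Opposed genes with both layers past the adjusted threshold numbered 3.

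Whether the replicate numbers pair the arrays is not settled: same-numbered vehicle arrays of the layers correlated at 0.17, 0.14 and 0.13, same-numbered E2 arrays at -0.31, 0.23 and -0.06, and the numbers were not taken as pairs. A replicate block over all arrays gave 187 layer differences. A random block joining the same-numbered epithelial and stromal arrays of a treatment gave 232, at a consensus correlation of 0.063. A replicate block within each layer gave 101 (34, 67), 388 epithelial responses, 22 in epithelium alone and 50 in stroma alone, and gaps of 47, 27 and 27. The block over all arrays took 11 of the named genes out of the calls, Hgf, Cemip, Jun, Fos and Spred2 among them. The block within each layer took out 31, these 5 and also Akr1c14, Enc1, Adamts3, Msln, Il1a and Bmp8a among them.

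Without 1 array the ranges were 65 to 653 layer differences (19 to 303 toward stroma, 46 to 519 toward epithelium), 194 to 1495 epithelial and 379 to 1161 stromal responses, 8 to 298 in epithelium alone, 37 to 160 in stroma alone, 16 to 211 opposed, and 27 to 327, 14 to 92 and 22 to 343 for the gaps. Of the 87 named genes, 2 changed sign under a setting, both with layer differences that missed the threshold: Fgf10 (-0.19 without epithelial vehicle replicate 3) and Ltf (-0.67 with the covariate not centred).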

Other observations

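Some genes outside the threshold of the layer comparison responded to E2. Greb1 rose 11.4-fold in the epithelium and 5.17-fold in the stroma, with an SE of 0.81 on its layer difference. Among the hypoxia and glycolysis genes, the glycolytic enzymes Pgk1 and Pfkp and the adenylate kinase Ak4 rose in the epithelium (0.65, 0.95 and 1.00, log2) with stromal differences of -0.08, 0.05 and -0.10, and their layer differences had adjusted p of 0.06, 0.131 and 0.0651 in limma.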
